A study of Mus musculus with 93 samples.

Results

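The comparison described here set granulosa samples from Esr2 knockout mice aged 6 months (6 libraries) against granulosa samples from Esr2 knockout mice aged 7 weeks (5 libraries), over all genes. These 11 libraries were all granulosa libraries of that genotype and those ages, out of 93 libraries in the series, of which 42 were granulosa and 51 oocyte libraries. Granulosa cells are the somatic cells that line the ovarian follicle and enclose the oocyte, and Esr2 encodes estrogen receptor beta. RNA was read by Smart-seq2, a method that copies whole transcripts from very small amounts of RNA. Both groups lacked Esr2, so age was the labelled difference between them. Wild type granulosa libraries of the same ages, 5 at 7 weeks and 12 at 6 months, served as the reference for the age difference, and 7 knockout libraries from mice of 4 weeks are given beside some genes without a test. The allele, strain, cycle stage, hormone treatment, animal and number of cells behind each library are not given in the sources used here. Nothing says that the libraries came from separate animals, so the p-values below measure the spread among these libraries, and some of it may be technical. Each age came as a table of its own, so age and anything else that differed between the tables cannot be told apart.

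Estrogen receptor beta is the main estrogen receptor of granulosa cells, where follicle-stimulating hormone (FSH) and estrogen together drive growth of the follicle towards ovulation. Before the surge of luteinizing hormone (LH) these cells divide and turn androgens into estrogen. After it they stop dividing and load cholesterol into mitochondria to make progesterone. Knockout females are known to ovulate poorly.

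The tables shared 16981 genes, and 13596 of them had enough counts to be tested. Knockout libraries held 714212 to 6377087 counts at 7 weeks and 1486396 to 5130419 at 6 months, with 14116 to 17579 and 14537 to 16568 genes detected. The 100 most abundant genes took 21.4% to 25% of the counts at 7 weeks and 25.8% to 31.5% at 6 months, with no overlap (exact two-sided permutation test, p = 0.00433). Esr2 had 0 counts in all 11 knockout libraries, which allows up to 0.212 CPM (counts scaled to a common library size) at 7 weeks and 0.17 at 6 months, taking 3 counts over a group as the floor and covering counting error only. In wild type libraries it had 27.4 CPM at 7 weeks and 11.3 at 6 months. Granulosa markers were present in every knockout library, with a summed share of 2372 to 5987 CPM at 7 weeks and 1911 to 5542 at 6 months (log2 difference -0.20, exact permutation test, adjusted p = 0.821 over 11 marker lists). Inha was the most abundant of them. Of the 11 tested members 3 fell at 6 months (Foxl2, Inhbb and Fst, described below) and 0 rose. Pgr, the progesterone receptor gene, was in the 6 month table alone and was not tested.

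Gene length moved with the ages. Across tested genes, the deviation of each library from the mean of all libraries had a Spearman correlation with exon length of 0.147 to 0.277 in the 5 knockout libraries at 7 weeks and of -0.329 to 0.0268 in the 6 at 6 months, with no overlap. In wild type libraries the ranges were -0.223 to 0.111 and -0.342 to 0.266 and overlapped. In a calculation over all 42 granulosa libraries, knockout libraries of 4 weeks ran from -0.0851 to 0.229, beside 0.104 to 0.261 at 7 weeks and -0.354 to -0.022 at 6 months. With genes in 5 length classes of about equal size, the shortest (66 to 2108 bases of exon) had 480 higher and 119 lower genes at 6 months in knockout samples, and the longest (7398 to 123179 bases) had 82 higher and 894 lower. In wild type samples the longest class gave 16 higher and 17 lower. A fit in which the trend of each library with length was removed called 1302 genes higher and 1380 lower, and 2213 calls were shared in direction, or 59.8% of those made without the removal. Values from that fit are given below where it ended the call of a gene described or moved a count of members by over 1.5 times and more than 1 member.

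**Figure D1:**
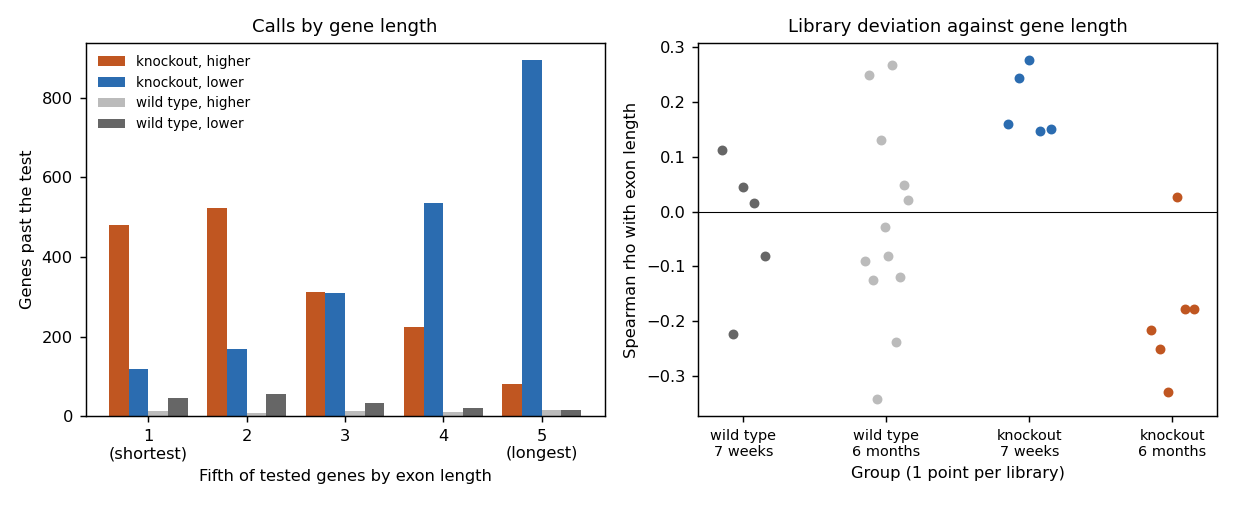
Left, number of genes past the test at 6 months against 7 weeks, by 5 classes of exon length of about equal size, in knockout (orange higher, blue lower) and wild type samples (light grey higher, dark grey lower). Right, Spearman correlation of each library's deviation with exon length, 1 point per library. In knockout samples the longest class gave 894 lower and 82 higher genes, and the 7 week and 6 month libraries did not overlap.

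In knockout samples 3702 of 13596 genes (27.2%) differed between the ages at an adjusted p under 0.05 in edgeR's quasi-likelihood test, 1655 higher (12.2%) and 2047 lower (15.1%) at 6 months. The median absolute log2 fold change of these genes was 1.02, and the median log2 fold change over all tested genes was -0.04. Scaling by library totals alone shifted the median of all genes to -0.28 and gave 946 higher and 3144 lower genes, so the split between the directions is relative to the scaling. Without library 3 at 7 weeks 1037 were higher and 1220 lower. CPM values of the groups did not overlap for 1604 genes (11.8%), of which 1525 were among the genes called. In wild type samples of the same ages 235 genes (1.73%) were called, 62 higher and 173 lower.

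Cholesterol synthesis, antioxidant and glutathione genes, glycolysis and the cell cycle had the largest shares of members that rose. Histone modifiers, Wnt signalling, the transforming growth factor beta family and angiogenic factors had the largest shares that fell. With the length trend removed histone modifiers left that order (6 of 58 lower), and steroid and nuclear receptors (7 of 22) followed the other 3 lists. Luteal and ovulation genes were called at about the overall share in each direction. All counts of members below are read against 12.2% higher and 15.1% lower over all tested genes. The values are bulk averages, in which fewer cells of a kind and less RNA per cell cannot be told apart.

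**Figure D2:**
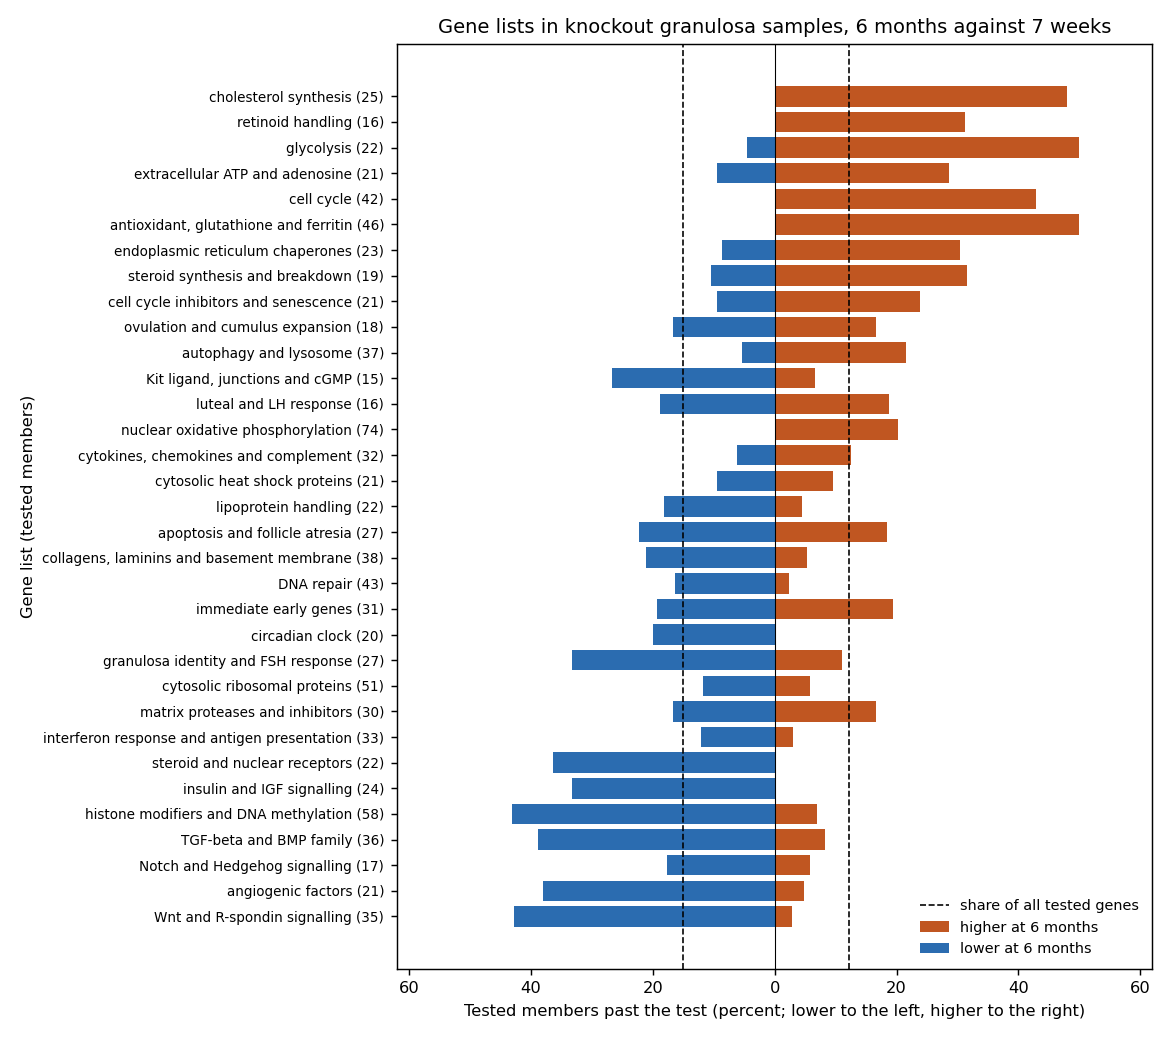
Share of tested members of each gene list past the test in knockout samples at 6 months against 7 weeks, higher to the right (orange) and lower to the left (blue), ordered by the list's median log2 fold change, with the number of tested members in brackets. Dashed lines mark 12.2% higher and 15.1% lower over all tested genes. Cholesterol synthesis, with 12 of 25 higher and 0 lower, stands at the top, and Wnt signalling, with 1 higher and 15 lower of 35, at the bottom.

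The higher genes with the smallest p came from lipid, sugar and amine metabolism, RNA handling and vesicle traffic. Fdps, farnesyl diphosphate synthase of the cholesterol pathway (chromosome 3, 89093588 to 89101959 in mm10), had 543.6, 645.0, 560.0, 664.9 and 433.3 CPM in the 7 week libraries and 864.3 to 2538 (median 2328) at 6 months. No 7 week library reached the lowest 6 month library (log2 1.83 ± 0.24, adjusted p = 4.33e-05). Taldo1, the transaldolase of the pentose phosphate pathway, stood at 148.9, 250.5, 231.6, 342.8 and 277.5 CPM against 523.6 to 970.2 (median 745.3), again without overlap (log2 1.52 ± 0.22, adjusted p = 7.41e-05). Hdc, the enzyme that makes histamine, went from 39.7, 109.1, 45.6, 120.6 and 45 CPM to 458.6 to 726.2 (median 681.0). This was the largest fold change of the 5 (log2 3.11 ± 0.44, adjusted p = 8.64e-05), and the 4 week knockout libraries averaged 78.6 ± 55.7 CPM (SD, n = 7), beside 73 ± 40 at 7 weeks on the same scaling. The RNA helicase gene Ddx39 went from 91.8, 76, 77.3, 101.9 and 84.1 CPM to 173.9 to 329.6 (median 279.9) (log2 1.57 ± 0.23, adjusted p = 0.000117). Rab31, a small GTPase of vesicle traffic, went from 115.4, 173.0, 108.3, 203.8 and 135.5 CPM to 306.8 to 473.1 (median 380.4) (log2 1.37 ± 0.21, adjusted p = 0.000127). For both, every 6 month library was above every 7 week library.

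Of the next 10 higher genes by p, Mrap, which carries the melanocortin 2 receptor to the cell surface, rose by log2 1.56 ± 0.24 (adjusted p = 0.000127) and Star, which moves cholesterol into mitochondria, by 2.25 ± 0.34 (adjusted p = 0.000141). The actin-binding genes Tagln2 and Cnn2 rose by 1.45 ± 0.22 and 1.92 ± 0.29, and Casp6, a caspase, by 1.52 ± 0.23. Akr1b8 (an aldo-keto reductase), Acot7 (an acyl-CoA thioesterase) and Sumo3 (a protein modifier) rose by 1.78, 1.77 and 1.12. Hif1a, the oxygen-responsive transcription factor, rose by 1.46 ± 0.23 and also in wild type samples (log2 1.29, adjusted p = 0.000884). In all, 4 of the 15 leading higher genes were called higher in wild type samples, the others being Rab31 (log2 0.72), Tagln2 (0.71) and Acot7 (0.93). Nfe2l2, the transcription factor of the antioxidant response, rose by 1.49 ± 0.25 (adjusted p = 0.000311). All 15 leading higher genes were past the test with the length trend removed and in every other setting that tested them. These genes were chosen by p, and their groups did not overlap.

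**Figure D3:**
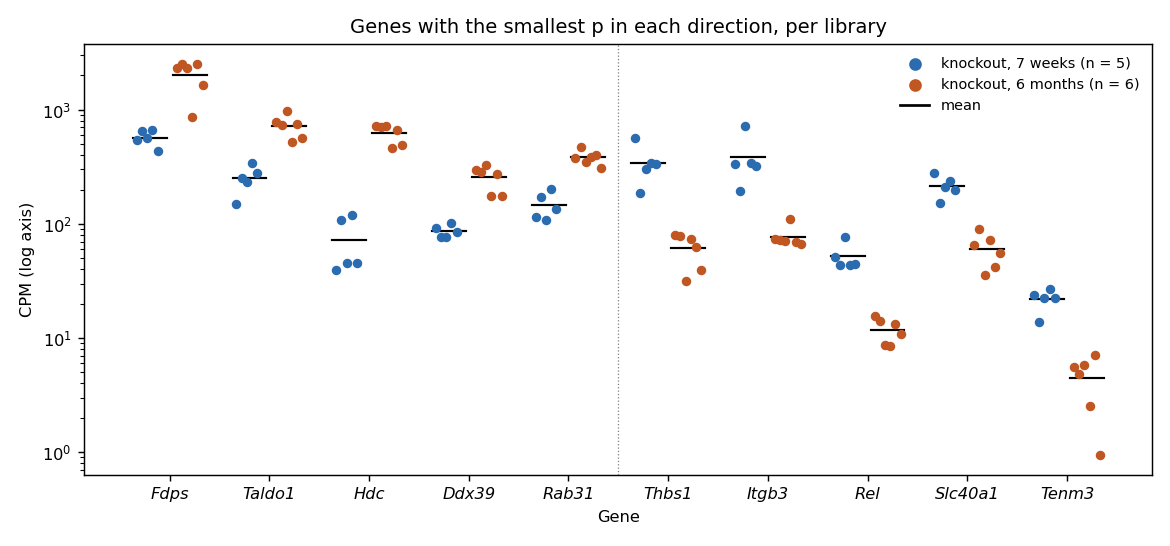
CPM on a log axis of the 5 higher (left) and 5 lower genes (right) with the smallest p, 1 point per knockout library at 7 weeks (blue, n = 5) and 6 months (orange, n = 6), with black lines at the means. Hdc spans 39.7 to 120.6 CPM at 7 weeks and 458.6 to 726.2 at 6 months, and in none of the 10 genes do the groups overlap.

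The lower genes with the smallest p were adhesion, signalling and transport genes. Thbs1, the matrix protein thrombospondin 1, which restrains vessel growth, had 561.0, 185.9, 300.1, 339.6 and 336.9 CPM at 7 weeks and 31.9 to 79.9 (median 68.5) at 6 months. All 6 month libraries were below all 7 week libraries (log2 -2.50 ± 0.31, adjusted p = 3.23e-05). Scaled over all 42 granulosa libraries, the 4 week knockout mean was 727.6 ± 295.5 CPM (SD, n = 7), beside 350.2 ± 140.1 at 7 weeks. Itgb3, integrin beta 3, had 335.1, 193.2, 723.5, 343.4 and 318.9 CPM against 67.3 to 109.4 (median 71.5) (log2 -2.31 ± 0.31, adjusted p = 4.33e-05). Library 3 at 7 weeks was the highest and library 2 the lowest of that age, and every 6 month library was below both. Rel, a subunit of NF-kappa B, had 50.9, 43.6, 76.6, 43.3 and 44.7 CPM against 8.57 to 15.5 (median 12.1) (log2 -2.13 ± 0.30, adjusted p = 5.87e-05). Slc40a1, the iron exporter ferroportin, had 280.5, 153.6, 210.5, 236.5 and 199.3 CPM against 35.8 to 90.1 (median 60.7) (log2 -1.84 ± 0.26, adjusted p = 5.87e-05), and it fell in wild type samples too (log2 -1.19, adjusted p = 0.00162). Tenm3, a cell surface teneurin, had 23.6, 13.7, 22.6, 27 and 22.4 CPM against 0.941 to 7.08 (median 5.18) (log2 -2.29 ± 0.33, adjusted p = 7.41e-05). None of these groups overlapped.

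The next 10 lower genes by p included Fst, which encodes the activin-binding protein follistatin. It had 364.9, 347.5, 377.8, 261.2 and 262.3 CPM at 7 weeks and 61.4 to 102.7 (median 78.3) at 6 months, without overlap (log2 -2.0 ± 0.30, adjusted p = 0.000137). The ion channel gene Kcnma1 and the semaphorin and VEGF co-receptor Nrp2 had log2 fold changes of -2.50 ± 0.39 and -2.98 ± 0.48, and the transcription factor Sox4 of -2.30 ± 0.37. Kif1b and Ank3, a kinesin and an ankyrin with exon lengths of 17608 and 34838 bases, had -1.57 ± 0.23 and -1.47 ± 0.23, and -0.90 and -0.59 with the length trend removed. Aff3, Aplp2, Cplane1 and Nexmif had -1.73, -1.22, -1.63 and -2.08. In wild type samples 3 of the 15 leading lower genes were called lower too, Slc40a1, Tenm3 (log2 -1.21) and Kcnma1 (-1.48). All 15 leading lower genes were past the test with the length trend removed and in every other setting that tested them.

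Some named genes share exon bases with another annotated gene, and whether counting used strand is not given in the sources used here, so their reads are uncertain. The share was 54.6% in Sox4, 57.2% in Fosl1, 54.4% in Nr2f6, 52.6% in Jund and 43.9% in Becn1. It was 10.2% to 26.8% in Fdps, Ddx39, Timp3, Cebpb, Fdft1, Uqcrc2, Ctsl, Ctsb, Rogdi and Tnpo2. The partner of Fdps lies on the same strand and all the others on the opposite strand.

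Cholesterol synthesis genes rose together at 6 months in knockout samples. Of 25 tested members 12 were higher and 0 lower, with a median log2 fold change of 1.15 beside -0.04 for all genes, and 12 were higher with the length trend removed. Acat2, which joins acetyl-CoA units at the start of the route, had 11.2, 71.1, 18, 49.2 and 20.1 CPM at 7 weeks and 117.4 to 344.2 (median 264.3) at 6 months, without overlap (log2 2.85 ± 0.49, adjusted p = 0.000617). Of the kinases and the decarboxylase that process mevalonate, Mvk rose by 1.96 ± 0.34 (adjusted p = 0.000451), Pmvk by 1.44 ± 0.30 (adjusted p = 0.00147) and Mvd by 2.55 ± 0.43 (adjusted p = 0.000451). Mvd had 26.1, 55, 23.7, 38.7 and 29.6 CPM against 65.5 to 366.5 (median 211.6), and the groups did not overlap. Fdft1, squalene synthase, rose by 1.90 ± 0.34, and it shares exon bases with Ctsb, a lysosomal protease gene that also rose. Among the enzymes that shape the sterol ring, Lss, Tm7sf2, Nsdhl, Ebp, Sc5d and Dhcr7 rose, from log2 0.84 in Tm7sf2 to 2.19 in Dhcr7. Hmgcs1, the synthase that precedes mevalonate, had 0.33 ± 0.36 (adjusted p = 0.516) and Sqle, squalene epoxidase, 1.15 ± 0.47 (adjusted p = 0.066), and neither passed the test. The regulators Srebf2 and Scap, with 0.10 ± 0.18 and -0.22 ± 0.23, did not pass either. Library 2 at 7 weeks had the highest level of Acat2 and Mvd at that age, and without it 19 members were higher.

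The median of the same 25 genes in wild type samples was 0.74, with 3 higher (Lss, Cyp51 and Acat2) and 0 lower. The difference between the age effects was past its test for 4 of them, all larger in knockout samples: Fdps (log2 difference 1.22, adjusted p = 0.0128), Dhcr7 (1.92, adjusted p = 0.0186), Fdft1 (1.24, adjusted p = 0.0448) and Mvk (1.2, adjusted p = 0.0495). For the others the difference did not pass, which does not show that the genotypes changed alike.

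**Figure D4:**
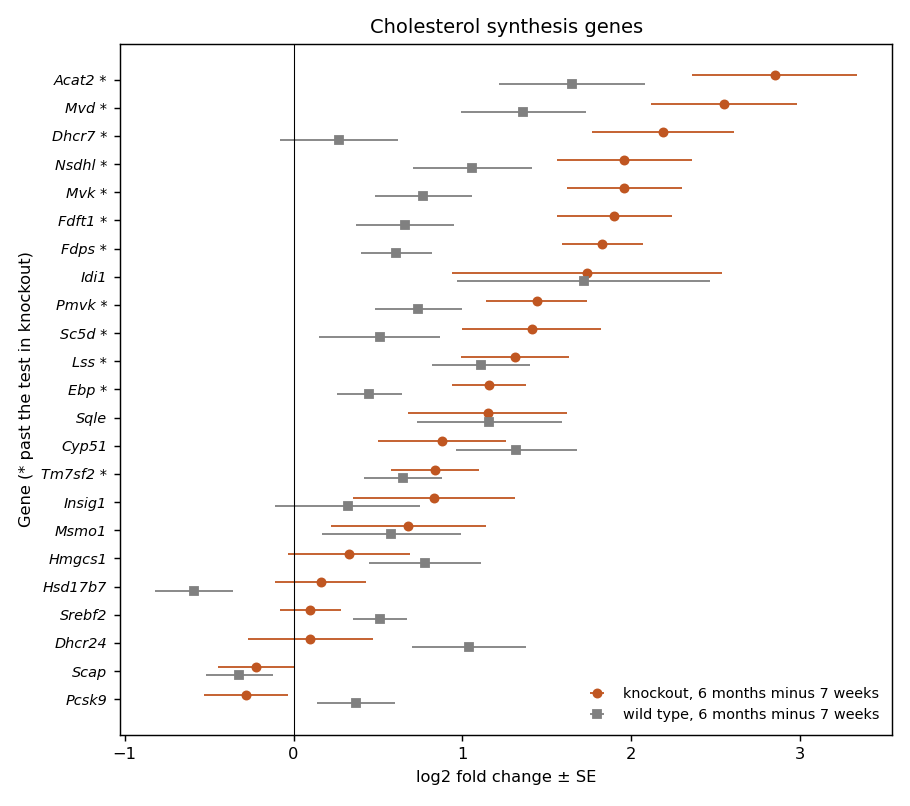
log2 fold change ± SE of 23 of the 25 tested cholesterol synthesis genes at 6 months against 7 weeks, in knockout (orange circles) and wild type samples (grey squares), with a star where the knockout value passed the test. Acat2 is at the top with 2.85 in knockout and 1.65 in wild type samples, and Dhcr7 shows the widest gap, 2.19 against 0.27.

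Because these genes moved together, the 250 bases before the start are shown from RefSeq promoters (GRCm38.p6) for those of the 5 members with the smallest p that the table holds. Capitals mark the CCAAT box, which reads CCAAT or, where it lies on the other strand, ATTGG. Mvk (chr5:114444019-114444268, plus strand) holds CCAAT 5 times on either strand, Mvd (chr8:122443423-122443672, minus strand) 2 times and Acat2 (chr17:12960726-12960975, minus strand) 0 times.
Mvk: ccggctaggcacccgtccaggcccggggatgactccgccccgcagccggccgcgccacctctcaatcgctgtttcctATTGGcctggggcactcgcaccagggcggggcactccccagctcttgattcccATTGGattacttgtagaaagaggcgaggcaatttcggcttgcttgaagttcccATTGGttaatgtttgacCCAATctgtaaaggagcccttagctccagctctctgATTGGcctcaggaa
Mvd: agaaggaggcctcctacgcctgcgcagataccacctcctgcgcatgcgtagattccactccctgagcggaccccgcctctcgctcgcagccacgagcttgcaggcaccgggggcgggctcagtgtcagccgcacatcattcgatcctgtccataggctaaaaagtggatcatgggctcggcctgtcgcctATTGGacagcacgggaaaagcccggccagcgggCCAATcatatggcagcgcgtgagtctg
Acat2: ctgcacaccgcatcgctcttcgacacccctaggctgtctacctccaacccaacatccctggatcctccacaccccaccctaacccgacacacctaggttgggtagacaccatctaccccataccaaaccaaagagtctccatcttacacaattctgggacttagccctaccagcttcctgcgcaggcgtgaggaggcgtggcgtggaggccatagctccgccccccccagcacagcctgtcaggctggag
Promoters were in the table for 18 of the 25 tested members and for 9930 of all tested genes. The CCAAT box, CCAAT on either strand before any listed start of the gene, was in 16 of the 18 (88.9%), beside 40.5% of the 9930, and in 9 of the 10 members that rose and have a promoter. The core of the sterol element, TCACCCC, was in 2 of the 18 (11.1%) beside 5.31%, and in 0 of the 10. The patterns do not contain each other. A match describes letters in this window, not binding.

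Antioxidant, glutathione and ferritin genes rose in 23 of 46 tested members, with 0 lower and a median of 0.60. With the length trend removed 14 rose and 0 fell, and with library totals alone 15 rose and 2 fell. Fth1, the ferritin heavy chain that stores iron, had 2784, 3632, 2178, 3447 and 2037 CPM at 7 weeks and 4938 to 7980 (median 5667) at 6 months, without overlap (log2 1.12 ± 0.22, adjusted p = 0.001). Fth1 rose in wild type samples too (log2 0.84, adjusted p = 0.0178). Among the glutathione transferases, Gstm7 rose by 1.69 ± 0.34 (adjusted p = 0.00119) and Gstp1 by 1.01 ± 0.21 (adjusted p = 0.00132). Gsta2 had 0, 0, 0, 0.154 and 0 CPM at 7 weeks and 1.5 to 13.9 (median 3.04) at 6 months, and its fold change is not given because the 7 week group is near 0. These transferases belong to families of closely related genes, so their reads may be split among relatives. Nfe2l2, described above, had 111.7, 160.0, 82.7, 199.9 and 128.3 CPM against 300.7 to 435.9 (median 393.6), without overlap. It holds the antioxidant element TGACNNNGC once in the 250 bases before its start (chr2:75704664-75704913, minus strand), shown in capitals.
Nfe2l2: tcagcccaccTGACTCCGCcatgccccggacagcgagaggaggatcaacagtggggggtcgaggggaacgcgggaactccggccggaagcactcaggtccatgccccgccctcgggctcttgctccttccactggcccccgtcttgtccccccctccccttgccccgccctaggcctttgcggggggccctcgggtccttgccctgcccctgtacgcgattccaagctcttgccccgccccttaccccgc
The element was in 9 of the 39 promoters of the list (23.1%), in 5 of the 20 of members that rose, and in 14% of all tested genes with a promoter.

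Glycolysis genes rose in 11 of 22 tested members, with 1 lower (0 with the length trend removed) and a median of 0.73, while in wild type samples 0 passed the test and the median was -0.06. Aldoc, an aldolase, had 42.2, 84.9, 55.5, 103.1 and 122.1 CPM at 7 weeks and 165.7 to 646.6 (median 465.4) at 6 months, without overlap (log2 2.37 ± 0.47, adjusted p = 0.0012). Its age effect differed from that in wild type samples (log2 difference 3.23, adjusted p = 0.00555). The lactate dehydrogenase genes Ldha and Ldhb rose by 1.07 ± 0.23 and 1.06 ± 0.22, Pgam1 (a mutase) by 1.09 ± 0.26 and Eno1 (an enolase) by 1.13 ± 0.26. Several glycolysis genes have near-identical copies in the mouse genome, and how such reads were counted is not given in the sources used here.

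Nuclear genes of oxidative phosphorylation rose in 15 of 74 and fell in 0, with a median of 0.10. In wild type samples 0 passed the test and the median was 0.17. With the length trend removed 10 rose and 7 fell, with a median of -0.18, and with library totals alone 9 rose and 1 fell. Examples were the ATP synthase subunits Atp5b (1.21 ± 0.28), Atp5a1 (0.87 ± 0.20) and Atp5c1 (0.85 ± 0.18), Uqcrc2 of complex III (0.94 ± 0.20) and Ndufa10 of complex I (0.91 ± 0.18). These 5 were chosen by p, and their groups did not overlap, beside 11.8% of all tested genes and 41.2% of called genes without overlap.

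Retinoid handling genes rose in 5 of 16 members and fell in 0, with a median of 0.91. Aldh1a3, which makes retinoic acid, had 8.69, 8.08, 7.66, 4.3 and 2.57 CPM at 7 weeks and 18.4 to 80.5 (median 36) at 6 months, without overlap (log2 2.86 ± 0.54, adjusted p = 0.00105), and the related Aldh1a1, which is also in the theca and stroma marker list, rose by 1.5 ± 0.42. Aldh1a3 rose in wild type samples too (log2 1.75, adjusted p = 0.0357). The alcohol dehydrogenase gene Adh5 rose by 0.91 ± 0.22. Aldh1a7 (2.23 ± 0.74), a close copy of Aldh1a1, and the retinal reductase gene Dhrs3 (0.74 ± 0.26) were not past the test with the length trend removed, where 3 members rose, as without library 3 at 6 months. The call of Aldh1a7 was also lost without 7 week library 1, 3 or 5 or 6 month library 3. That of Dhrs3 was lost without 7 week library 2, 3 or 5 or 6 month library 3 or 4, and with library totals alone.

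Genes that handle extracellular ATP and adenosine rose in 6 of 21 members and fell in 2, with a median of 0.72. Adk, adenosine kinase, had 55.9, 89.7, 36.4, 105.9 and 93.9 CPM against 160.3 to 275.4 (median 203.2), without overlap (log2 1.47 ± 0.29, adjusted p = 0.00119). Alpl, an alkaline phosphatase, had 0, 1.62, 0.383, 1.69 and 1.29 CPM against 0.37 to 11.3 (median 7.39), and 1 library at 6 months lay among those of 7 weeks (log2 2.50 ± 0.75, adjusted p = 0.015). The nucleotide receptor gene P2ry2 had 2.41 ± 0.76, and the phosphodiesterase Enpp1 and the channel Panx1 had -0.78 ± 0.24 and -0.93 ± 0.32, both not past the test with the length trend removed. P2ry2 was not past it without 7 week library 3 or 5 or 6 month library 3, Enpp1 not without 7 week library 2, and Panx1 not without 7 week library 3 or 6 month library 4 or 5. Without library 3 at 7 weeks, or library 2 or 5 at 6 months, 3 members rose.

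Cell cycle genes rose in 18 of 42 members and fell in 0, with a median of 0.63, and 1 rose in wild type samples, where the median was 0.25. In the test of the difference between these age effects 4 members were more positive and 2 more negative in knockout samples, near the shares over all tested genes (7.70% and 8.94%). Cdk1, the kinase that drives entry into mitosis, had 57.1, 117.2, 64.3, 88.2 and 77.1 CPM at 7 weeks and 129.5 to 230.5 (median 151.3) at 6 months, without overlap (log2 1.00 ± 0.20, adjusted p = 0.00122). Ccnb2, a cyclin that binds it, rose by 1.34 ± 0.24 (adjusted p = 0.000617). The spindle checkpoint gene Mad2l1 and the mitotic exit gene Cdc20 rose by 1.02 ± 0.23 and 1.53 ± 0.31, and the mitotic kinase gene Aurka by 1.28 ± 0.30.

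Among cell cycle inhibitors and senescence genes 5 of 21 rose and 2 fell, with 5 lower without 7 week library 4, 4 lower without library 5 and 1 lower without library 2. Cdkn1b, the inhibitor p27, had 204.8, 141.4, 222.8, 188.8 and 215.0 CPM at 7 weeks and 73.5 to 113.5 (median 99.5) at 6 months, and fell without overlap (log2 -1.01 ± 0.27, adjusted p = 0.00779). Cdkn2b and Cdkn2d, inhibitors of the kinases Cdk4 and Cdk6, rose by 1.69 ± 0.31 and 1.04 ± 0.29, the chromatin protein gene Hmgb1 by 0.82 ± 0.19 and the antiproliferative gene Btg2 by 1.29 ± 0.36. Cdkn1a, the inhibitor p21, had 347.5, 266.7, 517.1, 555.5 and 254.6 CPM against 266.8 to 499.6 (median 392.4) and did not pass (log2 -0.00 ± 0.21, adjusted p = 0.989).

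Genes of steroid synthesis and breakdown moved in both directions, 6 higher and 2 lower of 19, with a median of 0.39. With the length trend removed 3 were higher and 3 lower, with library totals alone 3 were higher, and without any 1 of libraries 1, 3 and 5 of either age 1 was lower. Star had 213.5, 594.0, 223.5, 359.6 and 203.9 CPM at 7 weeks and 1050 to 1956 (median 1505) at 6 months. Library 2 was the highest at 7 weeks and still below every 6 month library. Scaled over all 42 granulosa libraries, the 4 week knockout mean was 267.9 ± 140.3 CPM (SD, n = 7), beside 323.4 ± 168.3 at 7 weeks. Hsd17b12 and Hsd17b4, of the 17-beta-hydroxysteroid dehydrogenase family, rose by 1.33 ± 0.28 and 0.97 ± 0.27. Fdx1, which passes electrons to the side-chain cleavage enzyme, rose by 0.63 ± 0.18, a call lost with the length trend removed and with library totals alone. Fdx1 rose in wild type samples too (log2 0.78, adjusted p = 0.0101). Akr1c14, a 3-alpha-hydroxysteroid dehydrogenase, fell from 146.5, 105.9, 70, 144.1 and 125.7 CPM to 10.8 to 57.5 (median 30.5), without overlap (log2 -2.02 ± 0.37, adjusted p = 0.000699).

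The side-chain cleavage enzyme gene, Cyp11a1, had 1052, 834.1, 2394, 4878 and 3112 CPM against 2279 to 9611 (median 5145), and the groups overlapped (log2 1.16 ± 0.45, adjusted p = 0.0544). Hsd3b1, which makes progesterone, had 2915, 2256, 3461, 5463 and 5962 against 1151 to 3523 (median 2875) (log2 -0.57 ± 0.26, adjusted p = 0.104), and -0.90 (adjusted p = 0.0078) with the length trend removed. Aromatase, Cyp19a1, was scarce in every knockout library, with 2.48, 1.62, 0.383, 3.53 and 0.771 CPM against 1.88 to 10.2 (median 4.23) (log2 1.46 ± 0.63, adjusted p = 0.0811). Akr1c18, which inactivates progesterone, ran from 356.8 to 1762 CPM at 7 weeks and from 203.3 to 905.9 at 6 months (log2 -0.25 ± 0.37, adjusted p = 0.637). Without library 1 at 7 weeks, its highest, the log2 value was 0.33.

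**Figure D5:**
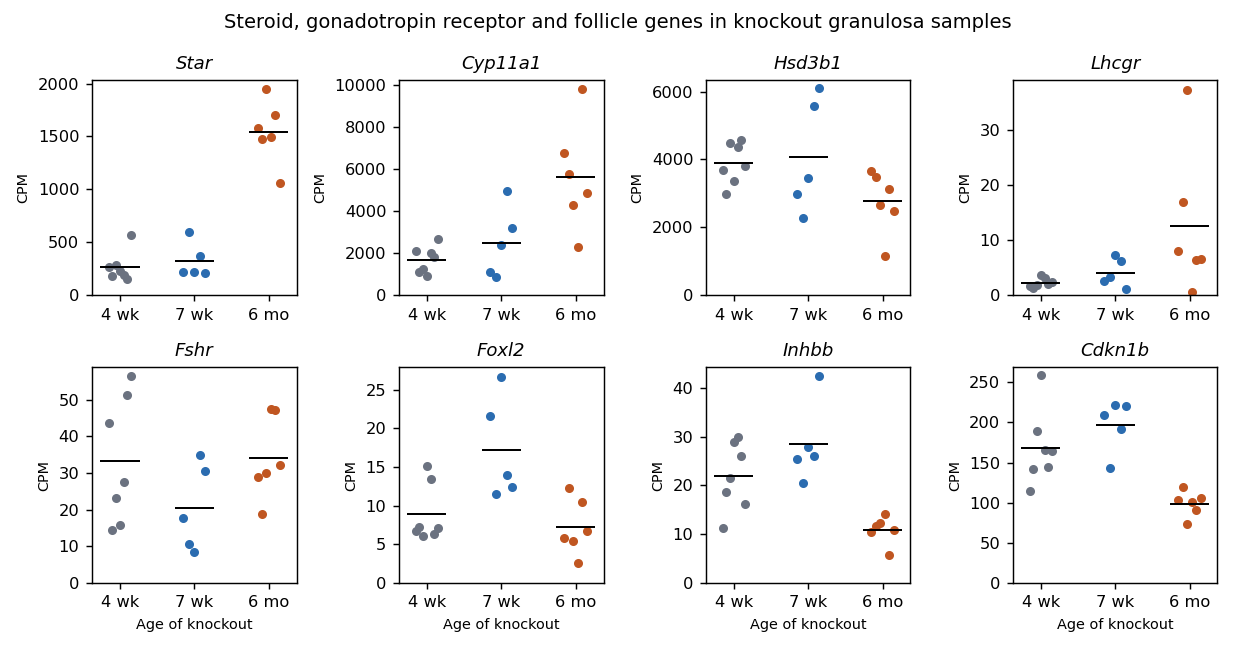
CPM per library of 8 genes in knockout granulosa samples at 4 weeks (grey, n = 7, not tested), 7 weeks (blue, n = 5) and 6 months (orange, n = 6), scaled over all 42 granulosa libraries, with black lines at the means. Star averages 267.9, 323.4 and 1543, and Cdkn1b 168.4, 197.3 and 98.7, while Cyp11a1, Fshr and Lhcgr overlap between 7 weeks and 6 months.

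The receptors for the pituitary hormones were scarce. Fshr, the FSH receptor, had 17.4, 10.5, 8.42, 34.4 and 29.8 CPM at 7 weeks and 18 to 47.4 (median 31.1) at 6 months (log2 0.68 ± 0.44, adjusted p = 0.253). Lhcgr, the LH receptor, had 2.48, 3.23, 7.27, 6.15 and 1.03 CPM against 0.504 to 37.5 (median 7.18) (log2 1.61 ± 0.60, adjusted p = 0.0466), and 1 library at 6 months lay below all of those at 7 weeks. Without library 3 at 6 months, the highest, its log2 value was 0.85 and did not pass, and leaving out 7 week library 1, 2, 3 or 5 or 6 month library 2 ended the call as well.

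Of 16 luteal and LH-response genes 3 rose and 3 fell, near the overall shares, with a median of 0.20. Those that rose were Star, Lhcgr and Parm1, the last named after its value was seen (log2 0.53 ± 0.20, adjusted p = 0.0488). Those that fell were Fosl2, an AP-1 transcription factor (-1.28 ± 0.25, adjusted p = 0.00119), the transcription co-activator gene Cited4 (-1.79 ± 0.51), and the protease inhibitor gene Timp3 (-0.86 ± 0.28). Timp3 was not past the test with the length trend removed or without library 2 of either age. Without any 1 of 7 week libraries 1, 3 and 5, or 6 month libraries 2 and 3, 1 member rose, and without 7 week library 4, 5 did.

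The ovulation and cumulus expansion list had 3 of 18 members higher and 3 lower, near the shares over all tested genes. Adamts1, a protease of the ovulating follicle, had 73.2, 101.8, 87.3, 63.8 and 66.3 CPM at 7 weeks and 120.4 to 323.5 (median 205.7) at 6 months, without overlap (log2 1.42 ± 0.27, adjusted p = 0.000785). Edn2, an endothelin made around ovulation, ran from 0.383 to 5.66 CPM at 7 weeks and from 2.35 to 52.3 at 6 months and rose (log2 3.87 ± 0.87, adjusted p = 0.00296), with some overlap. Snap25, of the secretory machinery, ran from 0 to 2.48 CPM and from 0 to 5.42, low at both ages and with overlap (log2 2.50 ± 0.84, adjusted p = 0.0265). Snap25 was not past the test without 7 week library 3, 4 or 5 or 6 month library 2 or 3. Cebpb, a transcription factor of the ovulatory response, had 32.3, 62.2, 42.1, 8.3 and 12.9 CPM against 0.37 to 6.05 (median 2.59), without overlap (log2 -3.44 ± 0.83, adjusted p = 0.00454). Nrip1, a nuclear receptor co-repressor needed for ovulation, fell by 1.32 on the log2 scale (SE 0.26). With the length trend removed 5 members rose, and without library 2 at 7 weeks 8 did.

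Granulosa identity and FSH-response genes were lower in 9 of 27 members and higher in 3, with a median of -0.25, and 5 were lower with the length trend removed or without 7 week library 1, 2 or 3 or 6 month library 1. Greb1, an estrogen-regulated gene, had 774.5, 788.0, 975.7, 810.7 and 857.1 CPM at 7 weeks and 184.4 to 499.6 (median 349.7) at 6 months, without overlap (log2 -1.25 ± 0.21, adjusted p = 0.000451), and it fell in wild type samples too (log2 -0.90, adjusted p = 0.00536). Foxl2, the transcription factor that keeps the ovarian fate of granulosa cells, had 21.1, 11.3, 26.8, 13.7 and 12.1 CPM against 2.52 to 11.7 (median 6.07), and the groups overlapped (log2 -1.27 ± 0.43, adjusted p = 0.0267). That call was lost without 7 week library 1 or 3 or 6 month library 1, 3 or 4. Serpine2, a protease inhibitor, rose by 1.18 ± 0.23 and Nap1l5 by 1.1 ± 0.32, the latter not past the test with the length trend removed. Gja1, connexin 43 of the gap junctions, had 1416, 1693, 755.6, 903.8 and 793.1 CPM against 387.3 to 914.2 (median 569.3) (log2 -0.91 ± 0.26, adjusted p = 0.011), and -0.51 (adjusted p = 0.104) with the length trend removed. Kitl, the ligand that granulosa cells present to the oocyte, had 21.1, 22.6, 10.3, 12.4 and 22.4 CPM against 3.76 to 11 (median 8.54) (log2 -1.05 ± 0.39, adjusted p = 0.0429). Its call was lost with the length trend removed (adjusted p = 0.0982) and without 7 week library 1, 2 or 5 or 6 month library 1, 2, 4 or 6.

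In the transforming growth factor beta and BMP family 14 of 36 members were lower and 3 higher, with a median of -0.58, and 12 were lower and 1 higher with the length trend removed. Among the ligands, Inhbb, the beta B subunit of activin and inhibin, had 24.8, 20.2, 27.9, 25.5 and 41.4 CPM against 5.51 to 14.1 (median 11), without overlap (log2 -1.39 ± 0.44, adjusted p = 0.0207), a call lost without 7 week library 5. Inha, the inhibin alpha subunit, had 0.50 ± 0.41 (adjusted p = 0.379), Inhba, the beta A subunit, -0.19 ± 0.30 (adjusted p = 0.66) and Amh, anti-Mullerian hormone, 0.82 ± 0.72 (adjusted p = 0.413), and none passed. Of the receptors, Tgfbr3, a co-receptor that binds inhibin, fell by 1.92 on the log2 scale (SE 0.42). Bmpr2, a BMP receptor, had -1.27 ± 0.30, and -0.61 (adjusted p = 0.0502) with the length trend removed. Fst (above), Ltbp1 (-1.01 ± 0.21) and Grem1 (-1.12 ± 0.27), which bind activin, latent TGF-beta and BMPs outside the cell, fell as well.

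Wnt and R-spondin signalling was lower in 15 of 35 members and higher in 1, with a median of -0.76. Wnt4, a ligand of the ovarian pathway, had 131.6, 136.6, 308.1, 122.8 and 113.7 CPM against 31.5 to 102.1 (median 63.3), without overlap (log2 -1.26 ± 0.33, adjusted p = 0.00645). Library 3 stood above the other 7 week libraries, and without it the log2 value was -0.88 and did not pass. The receptor genes Lgr6 (-2.65 ± 0.50) and Lrp6 (-1.17 ± 0.23) and the transcription factor gene Tcf7l2 (-1.06 ± 0.25) fell, while Porcn, which acylates Wnt ligands before secretion, rose by 1.5 ± 0.35 without overlap. With a filter of at least 50 counts on average, 9 members fell.

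Steroid and nuclear receptors were lower in 8 of 22 tested members and higher in 0, with a median of -0.45. Nr2f6, an orphan receptor (-1.66 ± 0.33), the thyroid hormone receptors Thrb (-1.5 ± 0.38) and Thra (-1.25 ± 0.32), and the retinoid X receptor Rxra (-1.28 ± 0.35) fell. Esr1, estrogen receptor alpha, had 39.7, 66.3, 25.6, 22.1 and 43.7 CPM against 10.7 to 102.3 (median 48.2), with wide overlap (log2 0.49 ± 0.52, adjusted p = 0.501). Without library 3 at 7 weeks 5 members of the list fell, without library 4 at 7 weeks 2 rose, and with a filter of at least 50 counts on average 4 fell.

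Insulin and IGF signalling had 8 of 24 members lower and 0 higher, with a median of -0.50. The receptor gene Igf1r had 217.2, 243.3, 344.9, 240.2 and 232.5 CPM against 74 to 163.4 (median 102.3), without overlap (log2 -1.21 ± 0.22, adjusted p = 0.00074). Igf2r (-0.94 ± 0.23), which takes up IGF2, the docking protein gene Irs2 (-1.54 ± 0.41) and the transcription factor gene Foxo1 (-1.12 ± 0.27) fell. Pik3ca, a kinase subunit, had -0.83 ± 0.25, a call lost with the length trend removed and without 7 week library 1. Angiogenic factors were lower in 8 of 21 and higher in 1, with a median of -0.69 and with Thbs1 and Nrp2 leading, and 5 fell with a filter of at least 50 counts on average. Vegfb fell by 1.25 on the log2 scale (SE 0.29). The guidance receptor gene Robo1 had -1.03 ± 0.26, and -0.40 (adjusted p = 0.188) with the length trend removed, and Hif1a was the member that rose.

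Collagens, laminins and basement membrane genes were lower in 8 of 38 and higher in 2, with a median of -0.10. Of type IV collagen, the sheet-forming collagen of basement membranes, Col4a1 had 789.3, 1048, 1353, 1057 and 637.2 CPM against 273.4 to 508.8 (median 373.0), without overlap (log2 -1.40 ± 0.27, adjusted p = 0.00106). Col4a2 had -1.13 ± 0.27 and Col4a5 -2.02 ± 0.44. Lama1, a laminin chain, had -1.11 ± 0.21, and Hspg2, the proteoglycan perlecan, -1.93 ± 0.44, and both fell. Without library 3 at 7 weeks 5 members fell, and without 7 week library 1 or 5 or 6 month library 2, 0 rose.

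Histone modifiers and DNA methylation genes were lower in 25 of 58 members and higher in 4, with a median of -0.53. With the length trend removed 6 were lower and 4 higher, and without library 3 at 7 weeks 13 were lower. The demethylase genes Kdm6b (-1.93 ± 0.35) and Kdm1a (-1.27 ± 0.26) were lower in both fits. Kdm5b (-0.90 ± 0.19) and Tet3 (-1.16 ± 0.26), with exon lengths of 16555 and 16695 bases, had -0.26 and -0.53 with the trend removed and did not pass there. The deacetylase gene Sirt6 rose by 1.27 ± 0.30, and its groups did not overlap.

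Immediate early genes moved in both directions, 6 higher and 6 lower of 31, with 3 higher and 6 lower once the length trend was removed. Nr4a1, an orphan receptor quickly induced by hormones, had 47.2, 193.2, 138.9, 243.2 and 108.8 CPM against 285.7 to 1120 (median 571.3), without overlap (log2 2.06 ± 0.51, adjusted p = 0.00548). The AP-1 gene Fosl1 ran from 0 to 6.45 CPM at 7 weeks and from 18.4 to 59 at 6 months and rose without overlap (log2 3.43 ± 0.87, adjusted p = 0.00611). The transcription factor genes Klf2 (-2.42 ± 0.40), Jund (-2.33 ± 0.46) and Egr2 (-1.47 ± 0.37) fell. Fos ran from 101.8 to 489.7 CPM at 7 weeks and from 198.6 to 1233 at 6 months and did not pass (log2 1.5 ± 0.64, adjusted p = 0.0796).

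In the autophagy and lysosome list 8 of 37 rose and 2 fell, with a median of 0.27. The cathepsin genes Ctsl and Ctsb rose by 1.15 ± 0.21 and 1.08 ± 0.26, Becn1, a starter of autophagy, by 0.94 ± 0.22 and the lysosomal membrane gene Laptm4a by 0.73 ± 0.19. Laptm4a was not past the test with the length trend removed, where 5 members rose, and without 7 week library 4, 14 did. Without library 2 at 7 weeks, or library 1, 2 or 3 at 6 months, 1 fell.

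Clu and Thbs4, a secreted chaperone and a matrix protein, did not pass, with -0.12 ± 0.31 (adjusted p = 0.804) and -0.25 ± 0.30 (adjusted p = 0.563). Cytosolic ribosomal protein genes were lower in 6 and higher in 3 of 51, with 0 to 11 lower as single libraries were left out and with 12 lower and 0 higher with the length trend removed. They have many processed copies in the genome and are uncertain.

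Markers of other cell types are set beside these results. Surface epithelium markers summed to 140.0 to 463.4 CPM at 7 weeks and 360.3 to 1222 at 6 months (log2 difference 1.23, exact two-sided permutation test, p = 0.0325, adjusted p = 0.179 over 11 lists). Of 9 tested members 3 keratin genes rose, Krt8 (1.41 ± 0.24), Krt18 (1.60 ± 0.39) and Krt7 (2.62 ± 0.90), named after their values were seen. Luteal cell markers summed to 4368 to 8567 CPM against 2606 to 5180 (log2 difference -0.57, exact permutation p = 0.0303, adjusted p = 0.179), with Hsd3b1 the most abundant, while 2 members, Lhcgr and Parm1, rose. Oviduct and ciliated epithelium markers ran from 72.8 to 1593 CPM and from 101.9 to 4554, with Ovgp1 the most abundant and Pax8 (2.51 ± 0.94) higher, and immune markers from 295.8 to 3712 and from 397.2 to 1243. Theca and stroma markers (260.5 to 799.3 against 300.8 to 586.4 CPM), oocyte markers (23.9 to 135.8 against 29 to 78) and endothelial markers (23.9 to 56 against 17.5 to 44.2) overlapped. Of theca and stroma markers Aldh1a1 rose (1.5 ± 0.42) and Ptch1 fell (-1.12 ± 0.31). Smooth muscle markers ran from 40.6 to 76 and from 42.2 to 271.7 CPM, with Acta2 higher (3.56 ± 0.86), cumulus-enriched markers from 554.5 to 759.1 and from 549.5 to 828.2, with Pfkp (0.96 ± 0.27) higher and Npr2 (-1.03 ± 0.24) lower, and erythroid markers from 12.6 to 476.2 and from 2.58 to 162.9. Pax8, Ptch1, Acta2, Pfkp and Npr2 were named after their values were seen. No marker present in both tables was at 0 over the knockout libraries. With oocyte markers as a covariate 3773 genes were called in knockout samples, and with immune and stroma markers 4410. The part of the other cell types in the gene results was not tested.

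The change with age was set against wild type samples in the same fit. Of the 3702 genes called in knockout samples 61 (1.65%) were called in wild type samples, which is 26% of the 235 called there, and 49 of the 61 moved the same way. Over all tested genes 1.73% were called in wild type and 27.2% in knockout samples, so the overlap is near the overall shares. DESeq2 called 469 genes in wild type samples and limma with quality weights 2041, so the wild type count depends on the test. A test of the difference itself called 2263 genes (16.6%), with 1047 more positive (7.70%) and 1216 more negative (8.94%) in knockout samples. Without library 3 at 7 weeks it called 1203 and without library 2 at 7 weeks 1467, and with the length trend removed 1456. Oocyte markers differed in the wild type reference, where they summed to 7.12 to 478.0 CPM at 7 weeks (median 310.7) and 11.9 to 49.6 at 6 months. Of 9 tested oocyte markers 7 fell in wild type samples, with a median log2 fold change of -3.10, and 6 were more positive in the test of the difference. With oocyte markers as a covariate the difference called 1900 genes, 899 more positive and 1001 more negative. Of the genes called in knockout samples 1793 (48.4%) were also called in the difference.

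Glycolysis had 10 of 22 members more positive and 1 more negative in that test, the antioxidant list 13 of 46 and 0, and the histone modifier list 4 and 17 of 58. These counts keep the length trend, which moved with age in knockout libraries. In the knockout age effect its removal took antioxidant members higher from 23 to 14 and histone modifiers lower from 25 to 6, while 11 glycolysis members stayed higher. List counts for the difference with the trend removed are not given here. The genes with the smallest p on the positive side were Aldoc, Rogdi, Tmem176b, Creb3l4, Anxa3 and Abhd6, and on the negative side Rel, Kif1b, Fst, Ahnak, Tnpo2 and Vat1. In the knockout age effect, Ahnak (19938 bases of exon) had a log2 value of -0.14 and Tmem176b 0.53 with the length trend removed, and neither passed there. The knockout call of Tmem176b was also lost with library totals alone and without library 3 at 7 weeks. Fst averaged 322.7 ± 56.7 and 80.4 ± 13.9 CPM (SD, n = 5 and 6) in knockout samples at 7 weeks and 6 months, and 175.3 ± 87.9 and 215.4 ± 87.1 (SD, n = 5 and 12) in wild type samples (log2 difference -2.31, adjusted p = 0.00555). Hdc averaged 72 ± 39.4 and 625.4 ± 118.8 in knockout samples and 237.2 ± 172.8 and 416.2 ± 185.2 in wild type samples (log2 difference 2.30, adjusted p = 0.00967). Thbs1 averaged 344.7 ± 136.1 and 61 ± 20.6 against 140.5 ± 44.4 and 109.3 ± 43.3 (log2 difference -2.14, adjusted p = 0.00555), and its 7 week knockout mean was the highest of the 4.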

How the data were processed

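Smart-seq2 RNA libraries of mouse granulosa samples were analysed from the deposited count tables, 1 per age. The deposited values are expected counts, that is, the authors' estimated counts of reads per gene, not normalized, of which 16.3% are not whole, and they were rounded. Per the submitters' processing notes, STAR, Partek, DESeq2 and the mm10 build were used, and the annotation, the counting step and its use of strand are not given in the sources used here. Tables were joined by gene symbol, and 1632 genes of the 7 week table and 700 of the 6 month table were left out.

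edgeR 4.0.16 (R 4.3.3, TMM factors, filterByExpr, robust quasi-likelihood F test, Benjamini-Hochberg adjustment over 13596 genes) was fitted to the 28 wild type and knockout libraries of both ages. Every adjusted p given for a gene comes from it, or from the fit with the length trend removed where that is stated. CPM are on TMM-scaled library sizes, while marker sums and the Esr2 limits use plain CPM. Depth ranged from 714212 to 6377087 counts in knockout libraries. DESeq2 1.42.0 and limma 3.58.1 (voom with quality weights) were alternatives, beside other scalings, filters, covariates, libraries left out in turn, and removal of each library's length trend. In data simulated for the knockout comparison over 13596 genes, 45 of 100 genes changed by 1 log2 unit and 90 of 100 changed by 2 were recovered, with 2 false calls. The changed genes were drawn from those above a minimum mean count. The simulation held no trend with gene length and no difference between tables, so it does not measure false calls from those.

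Described were the 15 called genes with the smallest p in each direction at a mean of at least 5 CPM, up to 5 called members with the smallest p per list, a set of follicle genes, and 6 genes per direction in the difference of age effects. The members and lists were chosen with earlier results of these data known. Values of some genes that the rule names are not reported here.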

Additional observations from a re-analysis of the deposited data

Results flagged for a closer look

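The age effect differed between knockout and wild type samples for 2263 genes (16.6% of those tested) in edgeR's test of the difference (adjusted p under 0.05). Of the 150 genes chosen by the rule for description 93 were among them. Most of the 150 were chosen by p in the knockout age effect, a part of this contrast, and 6 per direction by p in the difference itself. Their share is therefore not read as a result. The values of 92 of the 93 are given, as log2 differences of the age effects, knockout minus wild type. In lipid and steroid metabolism they were 1.22 in Fdps, 1.2 in Mvk, 1.24 in Fdft1, 1.27 in Star, 1.79 in Cyp11a1, 1.03 in Hsd17b12, 1.03 in Hsd17b4 and 1.86 in Abhd6. In sugar and mitochondrial metabolism they were 0.91 in Taldo1, 3.23 in Aldoc, 1.16 in Ldha, 1.41 in Ldhb, 1.45 in Eno1, 1.00 in Pgam1, 0.83 in Ndufa10, 0.67 in Atp5c1, 0.89 in Uqcrc2, 1.13 in Atp5b and 0.80 in Atp5a1. In redox, retinoid and nucleotide handling they were 1.07 in Nfe2l2, 4.52 in Gsta2, 2.13 in Gstm7, 1.13 in Akr1b8, 1.03 in Adh5, 1.59 in Aldh1a1, 1.04 in Dhrs3, 1.16 in Adk, 4.14 in Alpl and -1.21 in Panx1. The value of Gsta2 rests on a 7 week knockout group near 0 CPM, depends on the prior count of the fit and is no measure of size.

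Among genes of the cell cycle, cell death and protein turnover the differences were 1.24 in Ccnb2, 1.49 in Cdc20, 1.17 in Aurka, 1.35 in Btg2, 1.05 in Casp6, 1.12 in Sumo3, 1.02 in Ctsl, 1.15 in Becn1 and 1.26 in Ctsb. Among hormone receptors and follicle genes they were 2.01 in Fshr, 2.87 in Lhcgr, -1.68 in Foxl2, 0.96 in Serpine2, -0.99 in Gja1, 3.79 in Edn2, -4.24 in Cebpb, -1.48 in Nrip1, 1.07 in Mrap, 2.30 in Hdc, -2.07 in Nr2f6, -1.51 in Thrb and -1.35 in Rxra. Among growth factor and matrix genes they were -2.31 in Fst, -1.67 in Bmpr2, -1.42 in Lrp6, 1.75 in Porcn, -1.11 in Igf1r, -1.30 in Foxo1, -1.22 in Pik3ca, -1.35 in Vegfb, -2.14 in Thbs1, -2.36 in Nrp2, -1.97 in Itgb3, -1.58 in Col4a1, -1.16 in Col4a2 and -1.66 in Hspg2.

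Among transcription and chromatin genes the differences were -1.48 in Fosl2, 3.27 in Fosl1, 2.84 in Fos, -3.32 in Jund, -2.90 in Klf2, -2.42 in Rel, -2.29 in Sox4, -1.53 in Aff3, -2.06 in Nexmif, 3.36 in Creb3l4, -1.48 in Kdm6b, -1.52 in Kdm1a, -1.28 in Kdm5b, -1.12 in Tet3, 1.48 in Sirt6 and 1.22 in Ddx39. The remaining values were -1.83 in Kif1b, -1.18 in Ank3, -1.05 in Aplp2, -1.33 in Cplane1, 1.22 in Cnn2, 2.53 in Rogdi, 1.78 in Tmem176b, 1.92 in Anxa3, -1.56 in Ahnak, -2.15 in Tnpo2 and -2.37 in Vat1.

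Single libraries stood apart from the others of their group in 19 of 330 groups checked by Dixon's test, and chance gives about 1 in 20. Library 3 at 7 weeks stood above its group in Rel (76.6 CPM), Sox4 (473.9), Wnt4 (308.1) and Igf1r (344.9), library 2 below it in Tenm3 (13.7) and Lama1 (126.9), library 5 below it in Cited4 (109.3), library 4 above it in Gsta2 (0.154), and library 1 above it in immune markers (3712). At 6 months library 3 stood above its group in Cnn2 (195.7), Gstp1 (594.0) and smooth muscle markers (271.7) and below it in Ltbp1 (367.1), library 4 above it in Itgb3 (109.4) and below it in Hsd3b1 (1151), and library 6 below it in Btg2 (206.1), Kitl (3.76), Thbs4 (5.65) and Fos (198.6).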

How the results depend on the processing

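Of 137 called named genes, 101 were past the test in every setting that tested them. Over all settings 3154 of their values kept direction and call, 108 kept direction and lost the call, and 0 reversed. Replicate numbers recur in both ages, and the labels do not say what they stand for. Same-numbered libraries did not deviate together (r = 0.0668, -0.219, 0.02, -0.132 and -0.0946), but so few pairs cannot show whether they shared an origin. With the replicate number as a block, in knockout libraries alone, 1384 genes were called, 731 higher and 653 lower. Without the block, knockout libraries alone gave 3150. Of the 1384 genes 1360 were among the 3702 called in the main fit. Library totals alone gave 946 higher and 3144 lower. Leaving out 1 library gave 2257 to 4146 genes in knockout samples, 1037 to 1924 higher and 1220 to 2222 lower, lowest without library 3 and highest without library 4 of 7 weeks.

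The difference of age effects gave 1492 genes (666 more positive) with all 6 granulosa groups, 3504 (1728 more positive) with immune and stroma markers as covariates, and 1456 (668 and 788) with the length trend removed. Leaving out 1 library gave 1203 to 3091, with 517 to 1518 more positive and 686 to 1573 more negative. In wild type samples DESeq2 gave 469 genes (165 higher, 304 lower), limma 2041 (941, 1100) and the filter of 50 counts 150 (107 lower).

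Directions turned only in values that had not passed. The libraries of low depth are those of 702726, 714212 and 826029 counts. Esr1 had -0.04, Clu 0.04, Thbs4 0.14 and Cdkn1a 0.14 with the block. Akr1c18 had 0.33 without libraries of low depth and without 7 week library 1, Inhba 0.05 with the length trend removed, and Inhba 0.02, Clu 0.09 and Thbs4 0.12 without 7 week library 4. Cdkn1a had 0.03 with DESeq2 and with relative log expression factors, 0.04 with limma, 0.01 with knockout libraries alone and with the oocyte covariate, 0.02 with all groups and with immune and stroma covariates, and 0.00 to 0.16 without single libraries (0.13, 0.08 among them). Marker sums turned to 0.05 (granulosa, TMM scaling), and without single libraries to between -0.22 and -0.02 (immune, -0.03, -0.05, -0.10), -0.13 and -0.01 (theca and stroma, -0.08, -0.09) and -0.09 and -0.03 (oocyte). Over the libraries left out in turn, the lowest value was -0.41 in Akr1c18, -0.44 in Inhba, -0.11 in Cdkn1a, -0.25 in Clu and -0.46 in Thbs4, and the highest was 0.27 in theca and stroma, 0.69 in immune and 0.53 in oocyte markers, 0.734 in log2 total count and the lowest -626 in genes detected. The difference in log2 total count was -0.0558 without 7 week library 1 and without the libraries of low depth. That in genes detected was 33.2, 239, 88.7 and 81.4 without 7 week libraries 3, 4 and 5 and 6 month library 5.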

Other observations

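Other gene lists gave smaller or less stable counts. Endoplasmic reticulum chaperones, which fold secreted proteins, rose in 7 of 23 members and fell in 2 (median log2 fold change 0.46), with 4 and 0 once the length trend was removed and 2 to 10 higher as single libraries were left out. Apoptosis and atresia genes rose in 5 of 27 and fell in 6, and matrix proteases and their inhibitors rose in 5 of 30 and fell in 5, or 2 with the length trend removed. Of DNA repair genes 7 of 43 fell and 1 rose, with 3 lower with the length trend removed. Of circadian clock genes 4 of 20 fell and 0 rose, of interferon and antigen presentation genes 4 of 33 fell and 1 rose, and of Notch and Hedgehog genes 3 of 17 fell and 1 rose.

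Genes present in 1 table alone were not tested. Among those with gene names, mean counts in knockout libraries at 6 months were among the highest in Uox (59.8), the urate oxidase gene, Sprr2g (16.5) and Sbspon (14.9).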
